A study of Mus musculus with 6 samples.

Results

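The neuronal progenitor genes described here are 10 genes that mark or drive the dividing globose basal cells of the olfactory epithelium and their first neuronal daughters. They were chosen by name, as the probe sets whose gene symbol on the platform is exactly Neurog1, Neurod1, Kit, Hes6, Lgr5, Ezh2, Insm1, Sox11, Mybl1 or Cdkn1c. All 10 are on the array, with 22 probe sets, among 18193 named genes and 45101 probe sets in all. Each of the 10 passed the filter on dim genes with at least 1 probe set, and 20 of the 22 probe sets lay above it.

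RNA came from microdissected olfactory epithelium of 3 Harlequin males (Hq/Y), of the stock named B6CBACAw-J/A-Pdcd8-Hq/J, and of 3 littermate control males (+/Y), given as B6CBACa, all 6 months of age and otherwise untreated as far as the labels state. Harlequin is a mutation of the X-linked gene Aifm1, formerly Pdcd8, which encodes apoptosis-inducing factor, a mitochondrial flavoprotein, and the study asked how gene expression relates to neurodegeneration under oxidative stress. The mutation is present in every cell of these males, the strain names differ between the genotypes, and a difference in background cannot be told apart from the mutation. Each mouse was measured on 1 Affymetrix array, so that 3 arrays per genotype limit the precision of every value.

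The olfactory epithelium makes new sensory neurons throughout life. Globose basal cells divide above a layer of quiescent horizontal basal cells, pass through stages governed by basic helix-loop-helix transcription factors, leave the cell cycle and become immature and then mature olfactory neurons. Kit and Lgr5 are surface receptors found on such progenitors, Ezh2 is the histone methyltransferase of Polycomb repressive complex 2, Neurog1 and Neurod1 are proneural factors that act in sequence, Insm1 and Hes6 promote neurogenesis, Sox11 is a SoxC factor of newly formed neurons, Mybl1 is a Myb family transcription factor, and Cdkn1c encodes the cyclin-dependent kinase inhibitor p57.

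Promoter windows of 300 bases, from 250 before to 50 after the annotated start, are given for 4 of the genes (RefSeq, build GRCm38.p6, minus strand, 5′ to 3′). Neurog1, Neurod1 and Sox11 are shown because each lay below its mean over the arrays in Harlequin replicate 1 at its brightest probe set. Other probe sets of these genes did not all do so, and Sox11 was lower still in control replicate 3. Capitals mark the E-box CANNTG, the core word that helix-loop-helix factors bind. Ezh2 is shown for contrast, and capitals there mark the E2F word TTTGGCGC, searched together with TTTCGCGC and TTTCCCGC.
Neurog1, chr13:56252131-56252430: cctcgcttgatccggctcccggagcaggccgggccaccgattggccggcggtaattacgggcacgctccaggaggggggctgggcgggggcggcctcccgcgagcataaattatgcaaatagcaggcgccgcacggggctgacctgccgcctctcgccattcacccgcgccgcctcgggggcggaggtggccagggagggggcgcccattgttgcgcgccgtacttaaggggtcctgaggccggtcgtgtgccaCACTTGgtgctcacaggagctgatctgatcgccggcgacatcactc
Neurod1, chr2:79456587-79456886: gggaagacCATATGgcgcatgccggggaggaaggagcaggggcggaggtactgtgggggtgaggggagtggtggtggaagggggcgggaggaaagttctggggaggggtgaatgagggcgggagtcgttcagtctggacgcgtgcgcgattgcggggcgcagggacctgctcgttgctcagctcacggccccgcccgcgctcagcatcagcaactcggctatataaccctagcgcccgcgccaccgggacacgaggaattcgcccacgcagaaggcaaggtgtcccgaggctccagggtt
Sox11, chr12:27342669-27342968: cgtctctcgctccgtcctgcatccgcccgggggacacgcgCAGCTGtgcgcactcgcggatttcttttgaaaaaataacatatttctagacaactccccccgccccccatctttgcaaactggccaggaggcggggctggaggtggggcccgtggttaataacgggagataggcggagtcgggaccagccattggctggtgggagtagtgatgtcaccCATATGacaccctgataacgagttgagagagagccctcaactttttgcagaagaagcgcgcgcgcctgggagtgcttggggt
Ezh2, chr6:47594981-47595280: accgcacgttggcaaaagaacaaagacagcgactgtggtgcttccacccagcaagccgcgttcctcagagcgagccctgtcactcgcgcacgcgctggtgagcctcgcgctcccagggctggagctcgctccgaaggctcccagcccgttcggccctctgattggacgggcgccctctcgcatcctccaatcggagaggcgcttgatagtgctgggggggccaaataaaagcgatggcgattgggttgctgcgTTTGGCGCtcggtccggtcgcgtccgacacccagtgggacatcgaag

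The table held promoters of 6 of the 10 genes, Hes6 and Kit with 2 start sites each. On either strand, CANNTG occurred in the promoters of 5 of these 6 genes, Ezh2 being the exception, and in 72.3% of all 32851 promoters of the same length, so its presence in the windows printed is common. The narrower E-box CAGATG occurred in 0 of the 8 member promoters and in 17.2% of all. Among the 8, the Ezh2 promoter alone held any of the 3 E2F words, with 1 match, and 1.84% of all promoters held at least 1 of them. These matches describe the letters in the windows.

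Aifm1 was measured first as a check of the labels. It read 335.4, 221.1 and 211.2 in Harlequin, against 1239.9, 1255.6 and 1128.2 in controls, and it fell (limma, log2 fold change -2.20, SE 0.18, adjusted p = 0.0158). Its adjusted p in limma was 0.0953, 0.0749 and 0.0673 without control replicate 1, 2 or 3, at log2 differences between -2.25 and -2.17, 0.0887 without the intensity trend of the variance model and 0.0605 with the replicate number as a block. Arrays were checked against markers of the tissue as well. Omp, the marker of mature olfactory neurons, lay between 15891.8 and 18821.7 in Harlequin and between 16391.9 and 17347.8 in controls. Of 9 tested markers of these neurons, 7 were higher and 2 lower, with 0 called and a median log2 difference of 0.024. With 1 array left out 5 to 8 were higher. Cngb1, a dim one, read 11.1, 81.8 and 49.9 in Harlequin and 108.4, 114.3 and 110.7 in controls (log2 difference -1.19, limma adjusted p = 0.981). Its Harlequin mean of 47.6 lay below the filter on dim genes, at 61.1. Harlequin replicate 1 stood apart at single genes of other cell types. It had the highest signal of Krt15, a keratin of basal cells, at 3600.4, while the other Harlequin arrays had 411.9 and 569.8 and the controls 159.4, 1348.3 and 1257.5. It also had 426.3 units of Bpifb9b, a secretory product, where the other Harlequin arrays had 19250.9 and 18822.2 and the controls 29626.1, 16689.2 and 10975.6. Other markers of these cells did not all part in this way. On Harlequin replicate 1 the basal keratin Krt5, at 1679.6, lay above all controls. The basal cell marker Trp63, at 737.1, and the gland marker Aqp5, at 4912.7, lay within the control values. Values without this array are therefore given below.

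No progenitor gene passed the test between the genotypes. Of the 10 genes, 0 passed at an adjusted p under 0.05 in limma, and 4 of 13219 genes passed over the whole table, a share of 0.0303%. Tested one by one, 0 of their 22 probe sets passed, against 0.0133% of all probe sets. At an unadjusted p under 0.05 there were 2, Mybl1 and Cdkn1c, against 4.58% of all genes. These were also the 2 genes whose Harlequin and control values did not overlap, where 10.4% of all genes tested did not overlap. Mybl1 lay lower without overlap, as 5.34% of all genes did, and Cdkn1c higher, as 5.02% did. The log2 difference, Harlequin minus control on the log2(signal + 16) scale, was below 0 for 9 of the 10 genes, against 50% of all genes, with a median of -0.076 and a range of -0.56 to 0.33. The median over all genes was 5.17e-05. The count of 9 rested on small values and single arrays, since 5 of 10 lay below 0 without Harlequin replicate 1 or without control replicate 2, 4 of 10 when the probe sets of each gene were averaged, and 7 of 10 with median scaling.

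**Figure D1:**
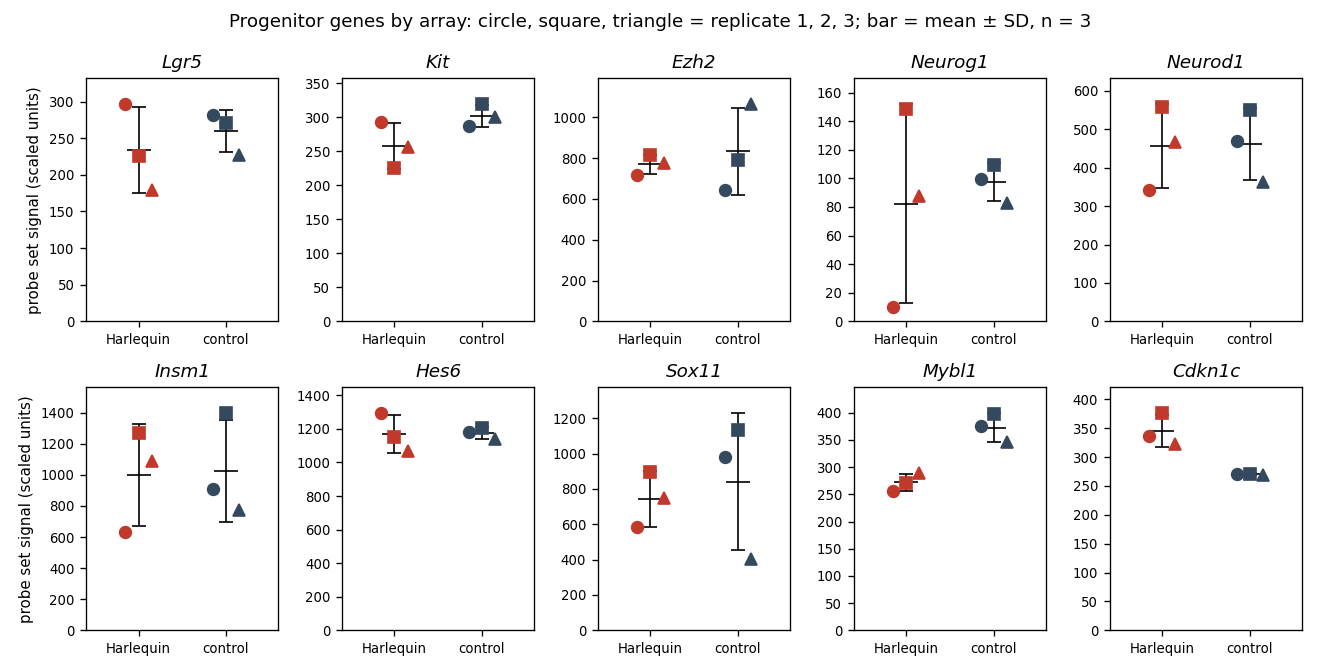
Signal of the brightest probe set of each of the 10 genes (y axis, scaled units, starting at 0) in Harlequin and control epithelium (x axis), with 1 point per mouse and the mean ± SD (n = 3) as a bar. Mybl1 and Cdkn1c are the 2 genes whose groups do not overlap, Neurog1 ranges from 9.9 to 148.7 within Harlequin, and Insm1 and Sox11 spread widely within both genotypes.

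Kit, the receptor of stem cell factor, gave 292.9, 225.5 and 256.1 in Harlequin, against 287.3, 319.0 and 300.2 in controls. Harlequin replicate 1 lay between control replicates 1 and 3, and the other Harlequin mice lay below all controls. Means were 258.2 ± 33.7 in Harlequin and 302.2 ± 15.9 in controls (SD, n = 3), and the difference did not pass (log2 difference -0.22, 95% interval -0.56 to 0.12, limma adjusted p = 0.981). The dimmer Kit probe set was at 101.8, 86.4 and 50.5 in Harlequin and 92.0, 100.9 and 69.4 in controls, with a log2 difference of -0.14. Leaving out each array in turn gave log2 differences of -0.31 to -0.13 at the brighter probe set.

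Kit is also carried by mast cells and melanocytes. In bulk tissue, fewer cells of a type and less RNA per cell cannot be told apart. Of 11 mast cell markers on the array 3 passed the filter, and the 11 together summed to between 2769.2 and 3309.9 in Harlequin and between 2863.3 and 3467.3 in controls. All 3 were lower in Harlequin, as Kit was, with a median log2 difference of -0.30 and 0 called. Without Harlequin replicate 3, where 4 were tested, 2 were higher and 2 lower with a median of -0.088. Without Harlequin replicate 2 or without control replicate 3 there were 1 higher and 2 lower, with medians of -0.40 and -0.31. The mast cell chymase Cma1 was at 41.4 to 68.5 in Harlequin and 63.2 to 92.5 in controls (log2 difference -0.36), and the transcription factor Gata2 at 335.1 to 474.7 in Harlequin and 473.3 to 560.5 in controls (log2 difference -0.30), both overlapping. Most of the sum was the third, Hdc, the histidine decarboxylase, at 2021.9 to 2664.2 in Harlequin and 1999.3 to 2688.4 in controls (log2 difference -0.0047). The mast cell protease Cpa3 lay at 25.4 to 82.5 in Harlequin and 35.8 to 75.9 in controls, near the filter at 61.1. Cma1 passed that filter through its control values, with a Harlequin mean of 58.2. Of 7 melanocyte markers 2 passed, with sums of 904.4 to 1132.4 in Harlequin and 965.5 to 1204.0 in controls, and the melanin enzyme Dct was at 4.2 to 60.8 in Harlequin and 20.9 to 33.2 in controls. Their part in the Kit values was not tested. The Kit ligand Kitl and its signalling partners counted 10 genes tested, 3 higher and 7 lower, with 0 called and a median log2 difference of -0.047. Without Harlequin replicate 3 there were 6 higher and 4 lower with a median of 0.027, and without Harlequin replicate 2 there were 1 higher and 9 lower with a median of -0.11. The median was -0.022 without control replicate 1. Kitl itself was at 1406.3 to 2161.7 in Harlequin and 1763.1 to 1887.2 in controls, overlapping.

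Lgr5, the R-spondin receptor of cycling stem cells, gave 296.2, 225.6 and 179.2 in Harlequin and 281.2, 271.1 and 226.7 in controls at its brighter probe set. The highest and the lowest of the 6 arrays were both Harlequin (log2 difference -0.16, 95% interval -0.62 to 0.29, limma adjusted p = 0.982). Its second probe set did not pass the filter and ran from 5.0 to 47.7 over the 6 arrays. Of 13 tested genes of R-spondin reception and Wnt feedback, 5 were higher and 8 lower, with 0 called and a median of -0.11. The median was -0.019 without Harlequin replicate 1, -0.037 without control replicate 2, -0.060 without control replicate 3 and -0.20 without control replicate 1. Lgr4, the close relative of Lgr5, was at 3363.1, 3226.4 and 3203.5 in Harlequin and 3016.9, 2864.2 and 2868.5 in controls. Its groups did not overlap, with a log2 difference of 0.16 that did not pass (limma adjusted p = 0.981). The Wnt inhibitor Nkd1 did not overlap in the opposite direction, at 53.8 to 63.8 in Harlequin and 73.7 to 102.2 in controls, and did not pass either (log2 difference -0.50, limma adjusted p = 0.981). The Harlequin mean of Nkd1, 58.5, lay below the filter signal of 61.1, so its control values carried it past the filter.

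Ezh2 gave 718.7, 814.2 and 774.8 in Harlequin and 645.0, 791.2 and 1063.0 in controls. The controls held the lowest and the highest value, and the 3 Harlequin mice lay between them (log2 difference -0.085, 95% interval -0.49 to 0.32, limma adjusted p = 0.986). Without control replicate 3, its highest array, the log2 difference was 0.10. Of 16 other Polycomb genes tested, 9 were higher and 7 lower, with 0 called, a median of 0.012 and a range of -0.11 to 0.21. Without Harlequin replicate 3 or without control replicate 3 there were 7 higher and 9 lower, and the median over the 6 fits with 1 array left out ran from -0.011 to 0.050. The partners of Ezh2 in the same complex were at 2069.0 to 2142.2 in Harlequin and 2092.4 to 2610.2 in controls for Eed, and at 1282.3 to 1566.1 in Harlequin and 1395.5 to 1511.8 in controls for Suz12. The related methyltransferase Ezh1 was at 1125.9 to 1257.1 in Harlequin and 1084.9 to 1200.4 in controls. Groups overlapped for all 3.

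The proneural genes differed more among mice than between genotypes. Neurog1, which commits globose basal cells to the neuronal fate, gave 9.9, 148.7 and 87.8 in Harlequin and 99.7, 109.0 and 83.0 in controls. Harlequin held both extremes, the lowest in replicate 1 and the highest in replicate 2. Means were 82.1 ± 69.6 in Harlequin and 97.2 ± 13.2 in controls (SD, n = 3), and the log2 difference of -0.56 had an interval of -1.92 to 0.79 (limma adjusted p = 0.982). Without Harlequin replicate 1 it was 0.21. The second probe set of Neurog1, below the filter, did not show this pattern, with 44.9, 61.2 and 38.2 in Harlequin and 51.7, 20.8 and 41.6 in controls.

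Neurod1, which follows Neurog1 in the lineage, gave 341.5, 558.8 and 467.0 in Harlequin and 470.6, 550.6 and 363.0 in controls. Harlequin replicate 1 and control replicate 3 were lowest, and replicate 2 of each genotype was highest. Means were 455.8 ± 109 in Harlequin and 461.4 ± 94.1 in controls (SD, n = 3). The log2 difference was -0.025, with an interval of -0.51 to 0.46 (limma adjusted p = 0.998). Its second probe set gave 284.3, 339.0 and 374.9 in Harlequin and 276.6, 370.1 and 288.2 in controls, with a log2 difference of 0.093.

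Insm1, a zinc-finger factor of progenitors leaving the cell cycle, gave 634.2, 1267.3 and 1090.1 in Harlequin and 910.8, 1395.0 and 772.2 in controls. The same 2 arrays as for Neurod1 were lowest and the same 2 highest. The difference was small beside this spread (log2 difference -0.053, 95% interval -0.71 to 0.60, limma adjusted p = 0.996). Its other probe set gave 611.0, 1313.2 and 659.4 in Harlequin and 671.5, 1168.8 and 516.4 in controls, again with replicate 2 of each genotype highest. Its log2 difference was 0.13.

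Hes6, which opposes Notch-driven repression of neurogenesis, was the steadiest of the 10 genes at its brighter probe set, with 1292.1, 1149.9 and 1070.9 in Harlequin and 1181.6, 1207.2 and 1138.0 in controls. Its values spanned a log2 range of 0.27 over the 6 arrays, against a median of 0.68 for the 10 genes and 0.48 for all genes. The log2 difference was -0.0094 (95% interval -0.25 to 0.23, limma adjusted p = 0.998). The second Hes6 probe set gave 943.5, 785.9 and 632.3 in Harlequin and 594.0, 650.4 and 717.8 in controls, with a log2 difference of 0.25 and an interval of -0.11 to 0.61.

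**Figure D2:**
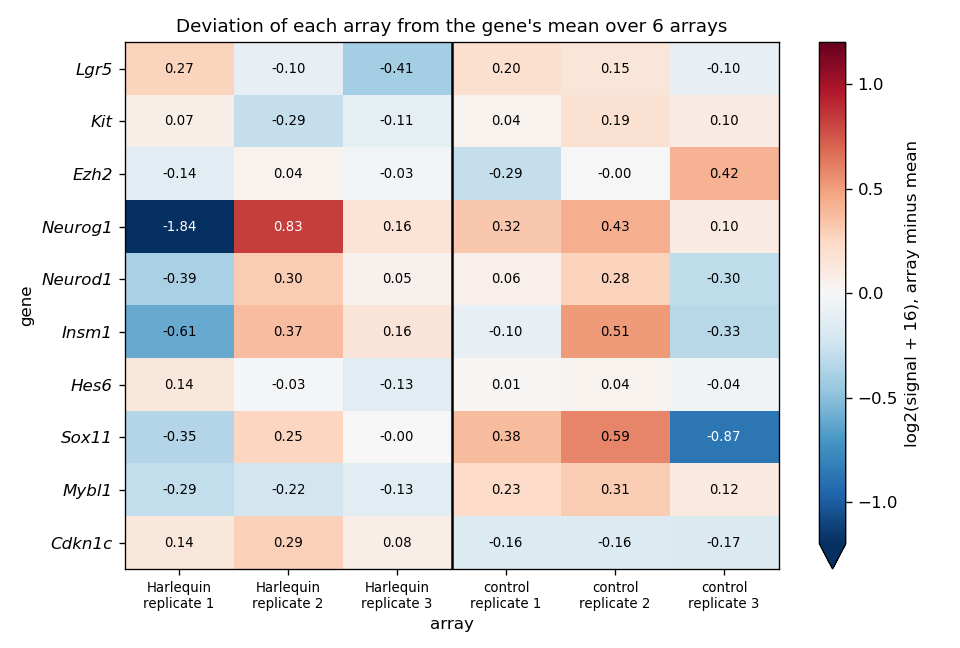
Deviation of each array (columns) from the mean over the 6 arrays for the brightest probe set of each of the 10 genes (rows). Units are log2(signal + 16), with red above and blue below the mean and Harlequin arrays left of the line. Neurog1, Neurod1, Insm1 and Sox11 are below their mean in Harlequin replicate 1 and above it in replicate 2 of both genotypes, while Mybl1 and Cdkn1c divide by genotype.

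Sox11, with 6 probe sets, showed how far probe sets of 1 gene can part. At the brightest it gave 584.3, 898.1 and 749.8 in Harlequin and 982.9, 1136.4 and 403.1 in controls. Control replicate 3 was lowest and control replicate 2 highest, with all Harlequin arrays between (log2 difference -0.066, 95% interval -0.87 to 0.74, limma adjusted p = 0.996). A second probe set, with the next highest mean, was low on the same arrays, at 348.6, 815.4 and 872.7 in Harlequin and 960.4, 1160.2 and 342.5 in controls. The dimmest of the 6 ran the other way, at 922.2, 114.1 and 508.0 in Harlequin and 87.7, 97.9 and 707.7 in controls, highest in Harlequin replicate 1 and control replicate 3, where the brightest was lowest. The remaining 3 varied less, between 452.6 and 714.6 over all arrays, with log2 differences of 0.021, 0.016 and -0.020. Over the 6 probe sets the log2 differences ran from -0.20 to 0.97, 3 above 0 and 3 below, and all 6 intervals spanned 0.

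**Figure D3:**
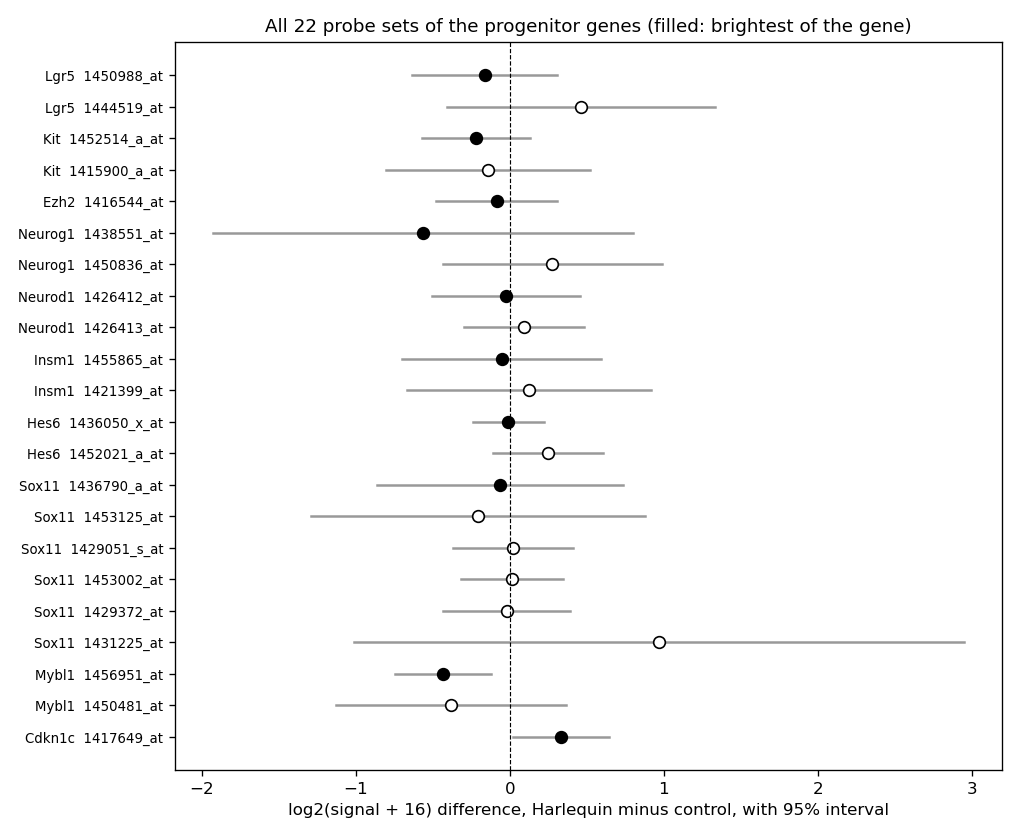
Log2 difference, Harlequin minus control, of the 22 probe sets (rows, by gene and identifier) with 95% intervals, the brightest probe set of each gene filled. The intervals of 20 probe sets span 0, the brighter Mybl1 probe set lies below 0 and the Cdkn1c probe set above it, and the 6 Sox11 probe sets scatter from -0.20 to 0.97.

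At the brightest probe set of each gene, Harlequin replicate 1 was the lowest of the 6 arrays for 4 of the 10 genes. These were Neurog1, Neurod1, Insm1 and Mybl1, and the array was lowest for 18.2% of all genes. At the second probe set of each of these 4 genes another array was lowest, and Mybl1 read 101.5 there in Harlequin replicate 1, against 67.2 in Harlequin replicate 3. Control replicate 2 was highest for 4, namely Kit, Insm1, Sox11 and Mybl1, and was highest for 16.7% of all genes. RNA integrity, read as Gapdh signal at the 3' end over that at the 5' end, was 0.79, 0.787 and 0.729 in Harlequin and 0.779, 0.74 and 0.846 in controls. Its part in these values was not tested. Markers of immature neurons, the next stage, summed over 13 genes to 36062.3, 37600.4 and 39749.7 in Harlequin and 40218.2, 39529.0 and 33819.4 in controls. Control replicate 3 was lowest there. The 10 progenitor genes summed lowest in Harlequin replicate 1, at 4762.7, with control replicate 3 next, at 4963.4. Markers of horizontal basal cells, summed over 10 genes, were highest in Harlequin replicate 1, at 10576.6, with 5404.0 and 5320.9 on the other Harlequin arrays and 5133.6, 7591.8 and 7589.2 on the controls. Of the 10576.6, Krt15 alone gave 3600.4. Krt5 and Krt14 were also highest on that array, whereas Trp63 and Itga6 were highest in control replicate 3. The part of immature neurons and horizontal basal cells in the progenitor values was not tested. Without Harlequin replicate 1 the log2 differences of Neurod1, Insm1 and Sox11 were 0.16, 0.24 and 0.093, and the median of the 10 genes was 0.028.

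Mybl1, also called A-Myb, had the lowest unadjusted p of the 10 genes. Its brighter probe set gave 256.4, 270.9 and 288.6 in Harlequin and 375.4, 397.5 and 345.9 in controls. All Harlequin values lay below all control values, at 72.9% of the control mean. Means were 272.0 ± 16.1 in Harlequin and 372.9 ± 25.9 in controls (SD, n = 3), a log2 difference of -0.43 (SE 0.13, 95% interval -0.74 to -0.13, unadjusted p = 0.0106). It was not called over the whole table (limma adjusted p = 0.981), where Mybl1 ranked 122nd by unadjusted p. Leaving out each array in turn gave -0.48 to -0.39. Its second probe set gave 101.5, 68.6 and 67.2 in Harlequin and 69.2, 170.3 and 99.7 in controls, overlapping, with a log2 difference of -0.38 and an interval of -1.13 to 0.36.

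Cdkn1c was the only one of the 10 genes with a higher mean in Harlequin at the brightest probe set with all 6 arrays. With median scaling 3 genes were higher, and with 1 array left out 2 to 5 were, 5 of them without Harlequin replicate 1 or without control replicate 2. It gave 336.5, 375.6 and 322.7 in Harlequin and 270.9, 271.2 and 268.3 in controls. All Harlequin values lay above all control values, which differed little among themselves. Means were 344.9 ± 27.4 in Harlequin and 270.1 ± 1.59 in controls (SD, n = 3), a log2 difference of 0.33 (SE 0.13, 95% interval 0.033 to 0.63, unadjusted p = 0.0337), and the gene was not called over the whole table (limma adjusted p = 0.981). Leaving out each array in turn gave 0.27 to 0.38. It has 1 probe set, so no second one was at hand to set beside it.

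**Figure D4:**
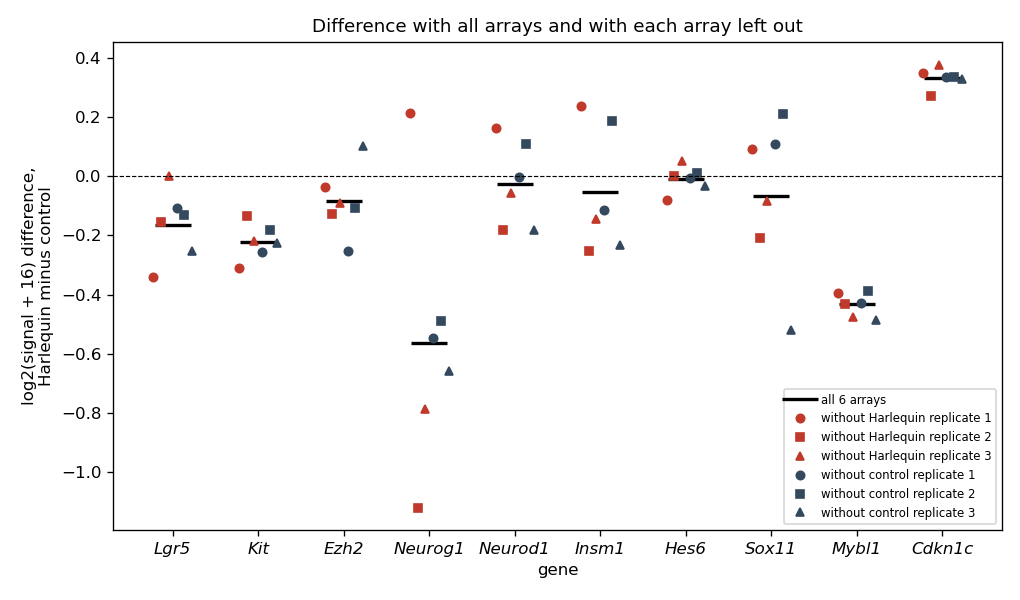
Log2 difference, Harlequin minus control (y axis), of each gene (x axis) with all 6 arrays (black bar) and with each array left out in turn (points). Mybl1 stays between -0.48 and -0.39 and Cdkn1c between 0.27 and 0.38, whereas Neurog1 runs from -1.12 to 0.21 and Insm1 and Sox11 cross 0. The groups of Mybl1 and Cdkn1c do not overlap, so leaving out an array cannot change their sign.

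Related cell cycle regulators were read from the same fit. Among other inhibitors of cyclin-dependent kinases 5 were tested, 2 higher and 3 lower, with 0 called and a median of -0.046. Without Harlequin replicate 1, Harlequin replicate 3 or control replicate 3 there were 3 higher and 2 lower, and without control replicate 2, where 6 were tested, 4 were higher and 2 lower. Cdkn1a, which encodes p21, was at 2436.8, 2183.7 and 2055.7 in Harlequin and 1971.8, 2017.0 and 1608.7 in controls, without overlap (log2 difference 0.26, limma adjusted p = 0.981). Cdkn1b, which encodes p27, was at 1378.6 to 1664.9 in Harlequin and 1469.2 to 1859.6 in controls. Cdkn1c is imprinted in the mouse, and of 12 other imprinted genes tested 6 were higher and 6 lower, with 0 called. The number higher ran from 4 without Harlequin replicate 3 to 7 without Harlequin replicate 1. Mest, an imprinted hydrolase gene, was at 494.0 to 528.8 in Harlequin and 552.5 to 758.3 in controls, without overlap (log2 difference -0.34, limma adjusted p = 0.981).

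Of 9 Myb relatives and E2F partners tested, 6 were higher and 3 lower, with 0 called and a median of 0.048, which moved to 0.11 without Harlequin replicate 3, and to 0.013 when control replicate 2 was left out. E2f2, an activator of S-phase genes, was at 171.1, 158.2 and 174.7 in Harlequin and 126.2, 55.9 and 142.5 in controls, without overlap (log2 difference 0.65, limma adjusted p = 0.981). Mybl2, the Myb relative of dividing cells, did not pass the filter, running from 45.2 to 69.6 over the 6 arrays. General cell cycle genes, 22 tested, lay higher for 20 and lower for 2, with 0 called and a median of 0.19. Without control replicate 2 they lay higher for 17 of 22 with a median of 0.091, and the median was also 0.091 without control replicate 1, 0.12 without Harlequin replicate 1 and 0.31 without control replicate 3. Cyclin A2, Ccna2, gave 481.8, 403.1 and 386.6 in Harlequin and 311.5, 265.9 and 319.9 in controls. By summed signal, marrow and red cell markers ordered the 6 arrays as the cell cycle list did. The sum of 15 such genes was 18619.4, 19579.9 and 13102.5 in Harlequin and 10383.5, 5926.2 and 17356.7 in controls, lowest in control replicate 2. The cell cycle sum of 23 genes was 13714.9, 13831.9 and 12179.6 in Harlequin and 11795.0, 11303.5 and 13612.4 in controls. Its largest term was Pcna, at 5191.7 to 5928.9 in Harlequin and 5285.7 to 5712.3 in controls. By mean log2 deviation the orders differed. Control replicate 3 lay above Harlequin replicate 1 for marrow markers, at 0.482 and 0.478, and below it for cell cycle genes, at 0.130 and 0.158. The part of marrow cells in the cell cycle values was not tested.

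Notch signalling holds back neurogenesis in neighbouring cells, and 23 ligands, receptors and targets were tested, 7 higher and 16 lower, with 0 called and a median of -0.070. Without Harlequin replicate 1 there were 11 higher and 12 lower, with a median of -0.021. The inhibitory ligand Dll3 was at 54.7, 45.0 and 57.2 in Harlequin and 75.6, 118.6 and 76.4 in controls, without overlap (log2 difference -0.62, limma adjusted p = 0.981). Its Harlequin values all lay below the filter signal of 61.1, so Dll3 was tested only through its control values. Dll4, a ligand of endothelium, was at 46.4 to 94.6 in Harlequin and 103.9 to 149.3 in controls, and the endothelial receptor Notch4 at 129.0 to 142.3 in Harlequin and 160.3 to 192.6 in controls. Id2, an inhibitor of helix-loop-helix factors, was at 1885.8 to 2316.7 in Harlequin and 2402.9 to 3037.5 in controls (log2 difference -0.33, limma adjusted p = 0.981). These 4 of 23 genes, the dim Dll3 included, did not overlap between genotypes, all of them lower in Harlequin, against 5.34% of all genes lower without overlap. The ligand Dll1 and the targets Hes1 and Hes5 overlapped, with log2 differences of 0.12, 0.011 and 0.086.

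Of 20 other globose basal and proneural genes tested, 13 were higher and 7 lower, with 0 called, 0 without overlap and a median of 0.083. Without Harlequin replicate 2 there were 10 higher and 10 lower with a median of 0.035, and the median was 0.052 without Harlequin replicate 3, 0.027 without control replicate 2 and 0.016 without control replicate 3. Sox2, a factor of basal and sustentacular cells, was at 2721.3, 3288.9 and 2543.7 in Harlequin and 3749.2, 3755.8 and 2886.4 in controls (log2 difference -0.28, limma adjusted p = 0.981). Pax6, present in the same cells, was at 795.6 to 1017.3 in Harlequin and 657.1 to 970.3 in controls, with a log2 difference of 0.26. Sox4, the SoxC relative of Sox11, was at 2178.6 to 3307.8 in Harlequin and 2498.5 to 3218.1 in controls. Neurog2, the relative of Neurog1, did not pass the filter, at 5.3 to 24.3 in Harlequin and 20.6 to 30.4 in controls. Sox11 also marks young neurons of the olfactory bulb and brain. The 18 bulb and brain markers summed to 22114.3 to 23799.3 in Harlequin and 21554.6 to 23608.9 in controls. Most of this sum was Snap25, Calb2 and Slc17a6. Tbr1, Gad1 and Th did not pass the filter. Over the 6 arrays Tbr1 ran from 13.8 to 36.8, Gad1 from 2.3 to 51.0 and Th from 18.7 to 49.6. Only 11 of the 18 markers passed the filter and were tested. Of these 11, 5 were higher and 6 lower with 0 called, and 4 did not overlap between genotypes, against 10.4% of all genes. Eomes, a factor of bulb projection neurons, was the one of the 4 that lay higher, at 850.8 to 1033.1 in Harlequin and 531.5 to 735.9 in controls (log2 difference 0.57). The secreted protein Reln, the myelin protein Mbp and the transcription factor Sp8 lay lower, with log2 differences of -0.52, -0.61 and -0.26. The part of bulb tissue in the Sox11 values was not tested.

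**Figure D5:**
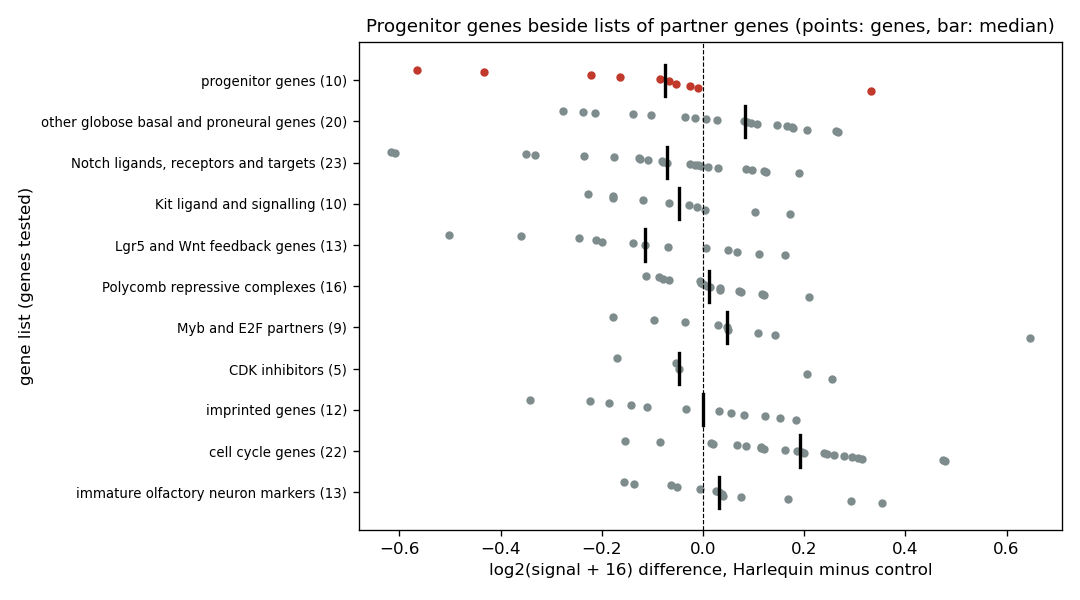
Log2 difference, Harlequin minus control (x axis), of every tested gene in the 10 progenitor genes (red, top) and in 10 lists of partner genes (grey), with the number tested in parentheses and the median as a bar. The progenitor median is -0.076, the cell cycle median is 0.19, and the other list medians lie between -0.11 and 0.083.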

How the data were processed

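The authors deposited linear probe set intensity values of 6 one-colour Affymetrix arrays, made from biotin-labelled cRNA per the labels' protocols. The values, 0.1 to 31786.1, share a 2% trimmed mean of 500 on each array, as after scaling by 1 factor. The summarization software is not given in the sources used here. Groups and replicate numbers came from the titles.

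All analysis used log2(value + 16), a scale on which dim genes appear to change less than they do, without the 64 control probe sets. Each of 18193 genes was represented by its probe set of highest mean log2 value, and 13219 genes above the 40th percentile (a signal of 61.1) were fitted together in limma 3.58.1 (R 4.3.3; lmFit, eBayes with an intensity trend, no further term). P-values are two-sided and Benjamini-Hochberg adjusted over all 13219 genes, with calls under 0.05, and intervals cover 95%. Probe set values come from a like fit over 45037 probe sets. Probe sets were named through the platform annotation. Of 18194 gene identifiers 18032 were found in RefSeq, and 0 symbols changed. The fit was tested on simulated data.

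Members and gene lists were chosen with earlier results of these data known, so list counts are descriptions. Named are all members, Aifm1, up to 4 genes of smallest p per list and conventional markers. Not every gene this allows is reported. Krt15 was singled out after its values were seen. Alternatives were other pseudocounts, filters, scalings, variance models, probe set rules, a replicate block and each array left out. A fit of every probe set on its own was added after seeing the data. Python 3.11.15, pandas 2.3.3 and matplotlib 3.10.9 made summaries and figures.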

Additional observations from a re-analysis of the deposited data

How the results depend on the processing

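In limma, 0 of the 10 progenitor genes passed under any of 17 alternatives (lowest adjusted p 0.894), or when every probe set was tested on its own (lowest adjusted p 0.941). A filter at the 60th percentile left Neurog1 untested. Mybl1, Cdkn1c and Kit kept their direction under all 17, with log2 differences of -0.484 to -0.379, 0.272 to 0.377 and -0.311 to -0.133. The gene-wise direction of the other 7 changed under some setting, always without passing. For Mybl1 and Cdkn1c, whose groups did not overlap, neither leaving out an array nor another pseudocount could reverse the direction. Averaging the probe sets of a gene gave 0.034 for Neurod1, 0.119 for Hes6, 0.15 for Lgr5, 0.0361 for Insm1 and 0.119 for Sox11. Median scaling, which moved the median of all genes to 0.0297 and the share lower in Harlequin to 42.6%, gave 0.00448 for Neurod1 and 0.0208 for Hes6, and leaving out _s_at and _x_at probe sets gave 0.247 for Hes6, where its other probe set was used. With 1 array left out, ranges were -1.12 to 0.214 for Neurog1, -0.182 to 0.162 for Neurod1, -0.0817 to 0.052 for Hes6, -0.339 to 0.000158 for Lgr5, -0.251 to 0.103 for Ezh2, -0.252 to 0.238 for Insm1 and -0.518 to 0.211 for Sox11. The median of the 10 ran from -0.228 to 0.0276, and the genes without overlap numbered 2 to 4. Kit and Lgr5 joined Mybl1 and Cdkn1c without Harlequin replicate 1, where 21.3% of all genes did not overlap. Calls over all genes numbered 0 to 3 with 1 array left out, 0 without an intensity trend and 0 with the replicate number as a block, against 4. The causes were not tested. Same-numbered mice correlated in their deviations at -0.237, -0.0298 and 0.0582, and unlike-numbered mice at -0.245 to 0.3. These correlations cannot decide whether the numbers pair the arrays, since the deviations within a genotype sum to 0. Dim probe sets, such as those of Neurog1, lie near the background of the array, and their values are the least certain.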
